A study of Mus musculus with 64 samples.

Results

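The features described here are 168 spots of a mouse gene expression array. In arrays with odd replicate numbers their mean signal was higher in 3T3-L1 adipocytes given TNF than in vehicle cultures. There it lay at a similar height after a later treatment with ASA and TGZ. In arrays with even numbers most of the features had a somewhat lower mean after ASA and TGZ than in TNF. They were chosen from the 6664 features whose identifier begins with MSK, out of 6963 in all. Group means of the odd-numbered arrays alone were used. A member had a difference between TNF and vehicle of at least 0.6 and an absolute difference between the ASA and TGZ group and TNF below 0.2. The even-numbered arrays took no part in the choice, and every test below was made in them.

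The cells were 3T3-L1 adipocytes, a mouse fibroblast line turned into fat cells in culture, taken 8 to 12 days after differentiation began. By title there were 22 arrays of vehicle, 21 of TNF and 21 of TNF+ASA+TGZ (the combination below), with 11 odd-numbered arrays in each group and 11, 10 and 10 even-numbered ones. By the labels TNF cultures received TNFα at 3 ng/ml for 48 h and again for a last 24 h, and combination cultures received it for 48 h and then 5 mM ASA with 10 µM TGZ for 24 h. Whether TNF stayed in the medium with the drugs is not settled by the labels, so adding the drugs and withdrawing TNF cannot be told apart. For vehicle the labels give medium with 0.2% BSA, an albumin not listed for the others, over the last 24 h. In the first 48 h all cultures had serum in the medium. The labels of the vehicle arrays disagree, since the titles say vehicle and the source text gives 48 h of TNFα to these cultures too. If that text holds, the first comparison sets continued TNF against TNF taken away. RNA of each culture carried Cy5, and pooled RNA of untreated differentiated cells carried Cy3 on every array.

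TNF is an inflammatory cytokine that acts through its receptors on NF-κB and stress kinases, and in fat cells it is known to blunt insulin signalling and to lower genes of the differentiated adipocyte. ASA and TGZ were read as acetylsalicylic acid and troglitazone. Acetylsalicylic acid inhibits cyclooxygenases and, at high concentration, the NF-κB pathway, and troglitazone is a thiazolidinedione that activates PPARγ, the main transcription factor of adipocyte differentiation. The study's title places the arrays in work on a signature of insulin resistance. The features considered here were chosen for lying near TNF after such drugs in the odd-numbered arrays. The files do not pair the identifiers with genes (0 of 6963 matched the gene table), so no gene name, function, cell type marker or sequence is given, and the adipocyte label could not be checked against markers. The number in an identifier is read as a plate and the letter and last number as a well.

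Values are log ratios of sample to pool and are given in log2 units. Base 2 is an assumption, and the direction rests on the dyes in the labels. With the ratio the other way round, higher and lower change places and the counts stay. Medians over all features lay between -0.06 and 0.07 on every array. Vehicle array medians of the 168 features ran from -0.38 to 0.21, and heights are read against vehicle, not against the pool. Single features departed from 0 in vehicle, such as MSK06f11 with an even-numbered mean of 0.36. Vehicle replicates 6 and 17 stood apart, with an SD over all features of 0.60 and 0.59 against a vehicle median of 0.218. TNF replicate 6 had the narrowest spread of its group, 0.265 against a median of 0.416. The labels speak of 6 collection days and 5 passages without saying which arrays belong to which, so odd- and even-numbered arrays may share days. The p-values measure the spread between cultures that the design text calls independently grown. The main fits treat arrays as unpaired, although same-numbered even arrays of different groups deviated together (median r 0.26 to 0.41).

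In the odd-numbered arrays the median of the 168 features in an array was at most 0.105 in vehicle. It ran from 0.48 to 1.17 in TNF, with a median of 0.71. In the combination it ran from 0.10 to 1.56, with a median of 0.79, and the 3 highest arrays, replicates 1, 13 and 15, stood at 1.56, 1.42 and 1.26, above every odd-numbered TNF array. The combination mean that placed the features near TNF in the choice therefore joined arrays far below and far above TNF. The median feature differed by 0.73 between TNF and vehicle and by 0.06 between the combination and TNF, as the rule required. The member nearest to the first limit had 0.60 and the nearest feature outside it 0.599. Members reached from -0.19 to 0.19 in the second difference, and the nearest features outside had -0.21 and 0.20.

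In the even-numbered arrays all 168 features were again higher in TNF than in vehicle. All 168 passed the test (limma, adjusted p under 0.05 over all 6963 features), where 45.5% of all features were called, 20.5% higher and 25% lower. The median difference was 0.80, which is 1.74-fold at base 2, with a range from 0.35 to 2.13 and a median standard error of 0.143. The median over all features was -0.03. At least 0.6 was reached by 152 of the 168. In 53 features every TNF array lay above every vehicle array, which held for 2.54% of all features. Array medians of the 168 features ran from -0.38 to 0.21 in vehicle and from 0.37 to 1.13 in TNF, so the groups did not overlap. The lowest vehicle array and the lowest TNF array both carried replicate number 6. The count was 166 without vehicle replicate 6.

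**Figure D1:**
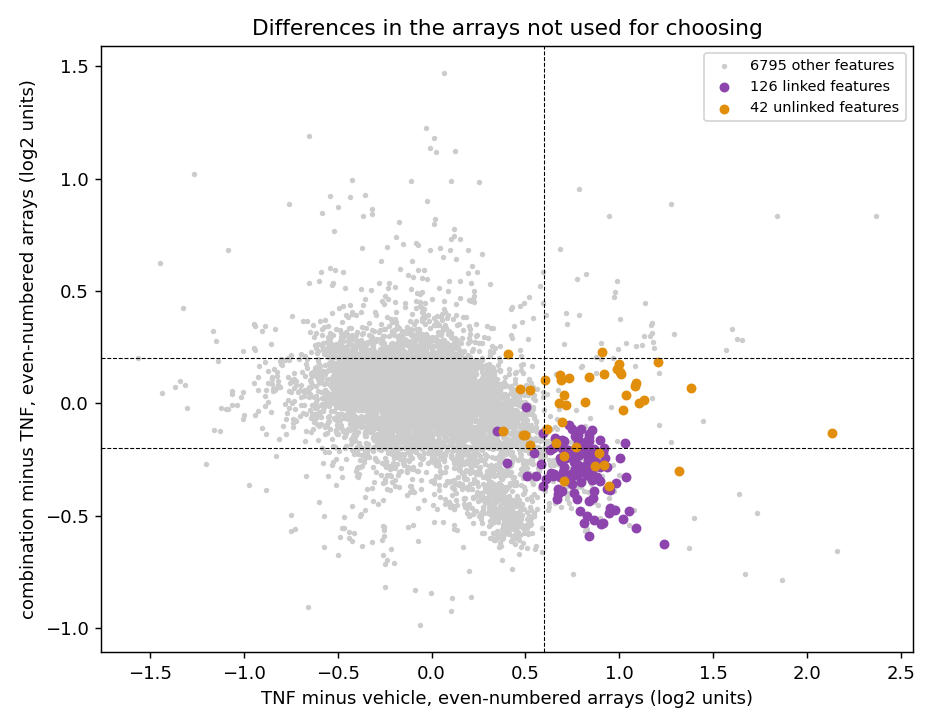
Differences in the even-numbered arrays, with TNF minus vehicle on the x axis and combination minus TNF on the y axis (log2 units), for 6795 other features (grey) and the 168 members, coloured as linked (126) or unlinked (42). Dashed lines mark the limits of the rule, which was applied to other arrays; all members lie to the right of 0, and 106 lie at or below -0.2 on the y axis.

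MSK03a16 had the largest difference between TNF and vehicle in the odd-numbered arrays. In the even-numbered ones it ran from -0.62 to 0.65 in vehicle with a median of 0.01 (n = 11), from 1.46 to 2.79 in TNF with a median of 2.18 (n = 10), and from 1.43 to 2.60 in the combination with a median of 2.00 (n = 10). Every TNF and every combination array lay above every vehicle array, while TNF and the combination overlapped almost fully. The mean difference between TNF and vehicle was 2.13 (SE 0.166, adjusted p = 1.2e-11 in limma), or 4.38-fold. The combination differed from TNF by -0.13, with a 95% interval from -0.48 to 0.21 (adjusted p = 0.706 in limma). It stood 2.00 above vehicle (SE 0.166, adjusted p = 3.2e-11 in limma). The interval holds a fall of 0.48 and does not reach the whole difference between TNF and vehicle.

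MSK06f11 had the next largest difference in the odd-numbered arrays. In the even-numbered ones it ran from -0.52 to 2.34 in vehicle with a median of 0.26, from 0.14 to 2.91 in TNF with a median of 1.77, and from -0.31 to 3.71 in the combination with a median of 1.16. The 3 groups overlapped widely, and within each group the arrays split by replicate number. Among numbers 2 to 10 the TNF arrays lay between 0.14 and 1.13 and the combination arrays between -0.31 and 0.33. Among numbers 12 upwards they lay between 2.40 and 2.91 and between 1.99 and 3.71. The vehicle arrays shifted as well, from a median of -0.16 to 0.50. Over all even-numbered arrays TNF was 1.32 above vehicle (SE 0.443, adjusted p = 0.0161 in limma), and the combination was 1.01 above vehicle without passing (adjusted p = 0.0693). With the division of the numbers as a block the latter was 1.10 (adjusted p = 0.000497). It also passed within numbers 12 upwards alone (1.88, adjusted p = 0.000293) and without vehicle replicate 20 or combination replicate 4, 6 or 10 (1.14 to 1.21). The difference between TNF and vehicle missed the threshold with arrays scaled to a common MAD (0.72, adjusted p = 0.208) and after quantile normalization (0.86, adjusted p = 0.0719), both in limma.

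In the even-numbered arrays most of the 168 features had a somewhat lower mean in the combination than in TNF, and few passed the test. Of the 168 features, 144 had a lower mean in the combination than in TNF and 23 a higher mean. The median difference was -0.24, which is 0.848-fold, within a range from -0.63 to 0.23, where the median over all features was 0.02. Past the threshold, 17 features fell (10.1%), against 5.46% of all features called lower, and 0 rose in limma, against 3.16% called higher and 8.62% either way. In 0 members did all TNF arrays lie above all combination arrays (0.172% of all features), and in 0 the reverse (0.33%). At an unadjusted p under 0.05 the numbers were 50 lower (29.8%) and 0 higher, against 21.6% of all features either way. The combination array medians lay within the TNF range in 6 of 10 arrays. The median of the 17 was -0.49, with adjusted p from 0.00609 to 0.0484. The rule's limits were met again by 51 features, and 106 had a difference of -0.2 or lower.

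This count rested on few arrays. It was 6 without TNF replicate 2, 7 without TNF replicate 4 and 7 without combination replicate 6. It was 9 without TNF replicate 10, 10 without TNF replicate 8, TNF replicate 20 or combination replicate 16, and 11 without combination replicate 4, 10 or 12. Without combination replicate 14, the highest of its group, it was 36. In the fits with a count of 11 or lower, the members' share (3.57% to 6.55%) was below that of all features called either way (5.87% to 8.9%). With other arrays left out it lay on both sides. It was 7.14% against 7.11% without TNF replicate 18, and 7.74% against 7.99% without TNF replicate 14. Without combination replicate 14 the members' share was 21.4% against 7.18%. The member counts are of features that fell, whereas these shares of all features hold both directions. The features share these arrays and many of them move together, so the 17 calls are not 17 separate observations.

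Over all 168 features the intervals were wide. The 95% interval of the difference between the combination and TNF held 0 in 118 features. It lay inside -0.5 to 0.5 in 59 features, and in 0 features inside the rule's own -0.2 to 0.2. In 108 features it reached below -0.5. The median width on either side of the difference was 0.30. Equal heights of the combination and TNF are therefore not shown for these features. In bulk cultures, fewer cells of a type and less RNA per cell cannot be told apart.

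**Figure D2:**
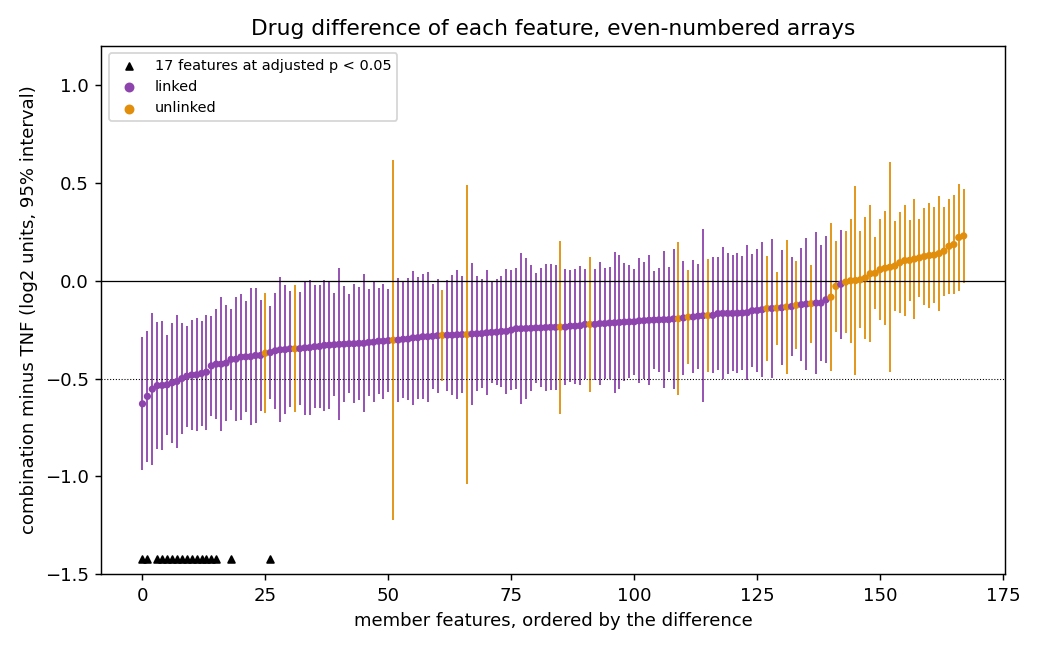
Difference between the combination and TNF (y axis, log2 units) for each of the 168 features in the even-numbered arrays, ordered by size, with limma's 95% interval. Colours separate linked and unlinked features, and triangles mark the 17 features that fell at an adjusted p under 0.05, all of them linked.

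MSK04e14 and MSK17m22 had the lowest differences between the combination and TNF among the members. MSK04e14 ran from -1.35 to 0.40 in vehicle with a median of 0.05, from 0.60 to 1.93 in TNF with a median of 1.31, and from 0.29 to 1.04 in the combination with a median of 0.52. Every combination array lay below the TNF mean, and 7 of 10 lay above the highest vehicle array. TNF was 1.24 above vehicle (SE 0.164, adjusted p = 9.37e-07 in limma), the combination differed from TNF by -0.63 (SE 0.168, adjusted p = 0.0156), and it was 0.61 above vehicle (SE 0.164, adjusted p = 0.00405). The difference from vehicle missed the threshold after quantile normalization (0.36, adjusted p = 0.0545 in limma). Fitted within numbers 1 to 11 or 12 upwards alone, the difference from TNF was -0.75 (adjusted p = 0.224 in limma) and -0.51 (adjusted p = 0.0528), and the difference from vehicle in the first of these was 0.70 (adjusted p = 0.099). In a limma fit over both parts, the difference from vehicle passed in numbers 1 to 11 (adjusted p = 0.0316). In numbers 12 upwards it was 0.53 and did not pass (adjusted p = 0.0946).

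MSK17m22 ran from -0.53 to 0.57 in vehicle with a median of 0.10, from -0.08 to 1.56 in TNF with a median of 0.97, and from -0.09 to 0.91 in the combination with a median of 0.27. All 10 combination arrays lay below the TNF mean, while 3 of 10 lay above the highest vehicle array. It fell in the combination, with a difference of -0.59 from TNF (SE 0.165, adjusted p = 0.021 in limma), and did not pass the test against vehicle (0.25, 95% interval -0.08 to 0.58, adjusted p = 0.215). With arrays scaled to a common MAD the difference from TNF was -0.48 (adjusted p = 0.0624 in limma), and within numbers 1 to 11 or 12 upwards alone it was -0.76 (adjusted p = 0.108) and -0.43 (adjusted p = 0.236). In a limma fit over both parts of the numbers, the first of these passed (adjusted p = 0.0466) and the second did not (adjusted p = 0.368). In the odd-numbered arrays, where they were chosen, both features had differences from TNF inside the limit, -0.17 for MSK04e14 and -0.12 for MSK17m22.

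MSK07o4 and MSK38i3 had the highest differences between the combination and TNF. MSK07o4 ran from -0.39 to 0.69 in vehicle with a median of -0.01, from 0.41 to 1.41 in TNF with a median of 0.99, and from 0.81 to 1.52 in the combination with a median of 1.17. Each combination array lay above every vehicle array, and 8 of 10 lay above the TNF mean. TNF was 0.91 above vehicle (SE 0.116, adjusted p = 5.06e-07 in limma). The combination was 0.23 above TNF with an interval from -0.01 to 0.47 (adjusted p = 0.259 in limma) and 1.14 above vehicle (SE 0.116, adjusted p = 3.89e-09).

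MSK38i3 ran from -0.22 to 0.79 in vehicle with a median of -0.04, from -0.12 to 1.07 in TNF with a median of 0.53, and from 0.33 to 1.03 in the combination with a median of 0.75. Vehicle and TNF overlapped over most of their range, and the highest vehicle value came from replicate 6. TNF was 0.41 above vehicle (SE 0.131, adjusted p = 0.0123 in limma), which within numbers 1 to 11 or 12 upwards alone was 0.47 (adjusted p = 0.0789) and 0.34 (adjusted p = 0.136). The combination was 0.63 above vehicle (SE 0.131, adjusted p = 0.000379). The difference between the combination and TNF was 0.22, with an interval from -0.05 to 0.49 (adjusted p = 0.362).

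**Figure D3:**
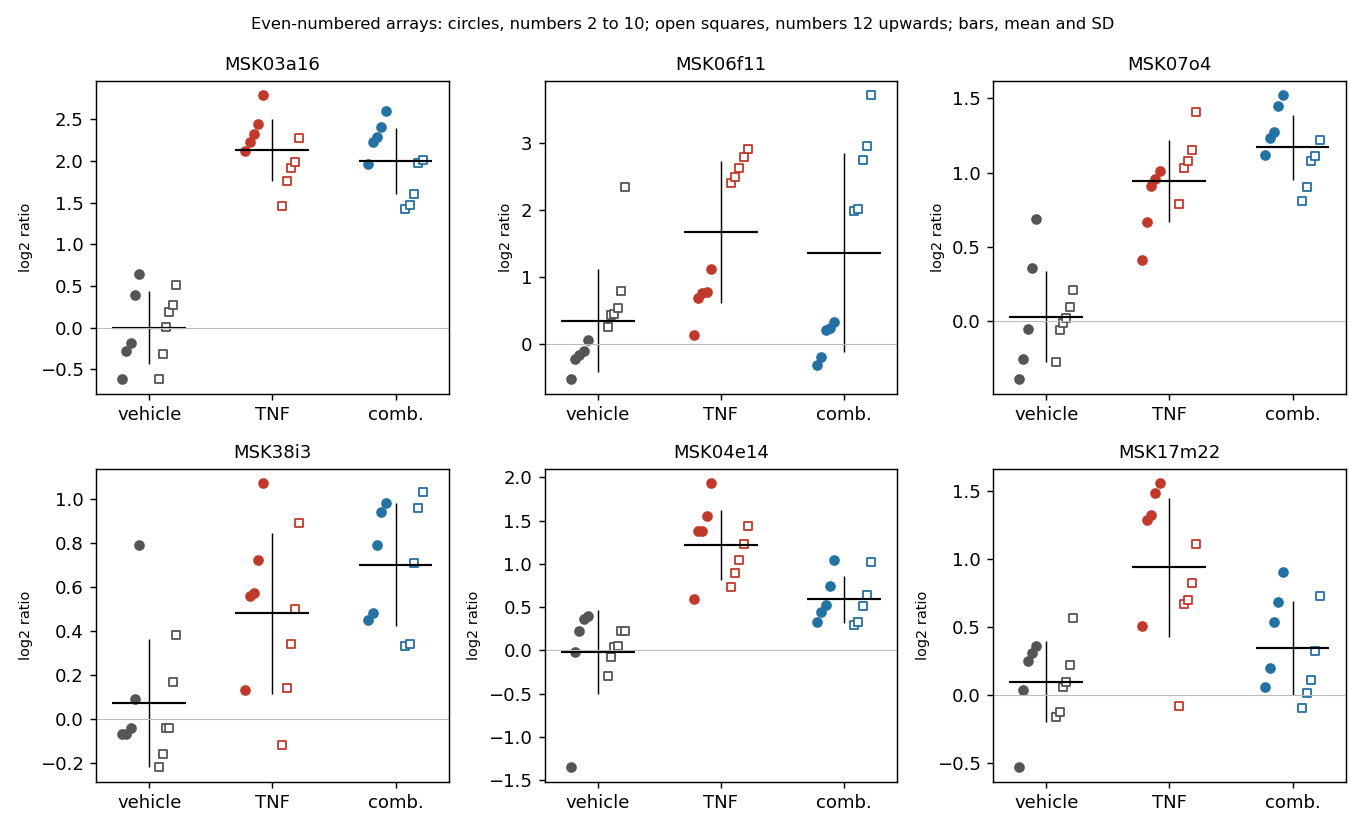
Values (y axis, log2 ratio) of the 6 named features in the even-numbered arrays of vehicle (n = 11), TNF (n = 10) and the combination (n = 10), with the mean and SD as bars. Filled circles are replicate numbers 2 to 10 and open squares numbers 12 upwards; in MSK06f11 the squares stand above the circles in every group.

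All 168 features had a higher mean in the combination than in vehicle. Past the threshold were 142 (84.5%), against 17.6% of all features called higher in this comparison (36.5% either way), and 0 were lower, against 18.8% (limma, 0 at an unadjusted p under 0.05). The median difference was 0.55, or 1.46-fold, with a range from 0.14 to 2.00, beside a median of -0.03 over all features. The 26 features that did not pass had a median difference of 0.31. In 11 features every combination array lay above every vehicle array, against 53 for TNF and 1.31% of all features for the combination. The same arrays enter the tests against TNF and against vehicle, so the 3 differences of a feature are not independent of each other.

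Where the combination lay between vehicle and TNF was tested as its difference from the midpoint of those groups' means. Of the 168 features, 144 lay above the midpoint and 24 below. Above it past the threshold were 24 features (14.3%), against 7.01% of all features called higher (limma), and below it were 0 (7.9% of all features, 14.9% either way), with 0 at an unadjusted p under 0.05. The median difference from the midpoint was 0.16 over the 168 features. In the 24 features past the threshold the combination stood between 0.58 and 2.00 above vehicle, with a median of 1.06. Their differences from TNF ran from -0.13 to 0.23. For these 24 features the test placed the combination nearer to TNF than to vehicle. For the other members it did not decide on which side of the midpoint the combination lay.

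The 168 features did not vary independently from array to array. After group means were removed, each feature was correlated with the mean of the other members over the odd-numbered arrays. A value of r of at least 0.5, a limit chosen after the values were seen, put 126 features in a linked set and 42 in an unlinked set. No test was made between these sets, which are described only. In the even-numbered arrays the linked features kept a median r of 0.81 with the other members (31 arrays), and 123 of 126 again had at least 0.5. The unlinked features had a median r of 0.02, and 3 of 42 reached 0.5. Arrays, labelling and normalization are shared by all features, so r describes these arrays. Among the 6795 features that are no members, 379 (5.58%) had r of at least 0.5 with the mean of the linked set, and their median r was -0.04.

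The joint movement was present within each group. With the mean of the linked set as the measure, the median r of a linked feature was 0.76 in the 11 vehicle arrays, 0.86 in the 10 TNF arrays and 0.89 in the 10 combination arrays. Without the combination arrays it was 0.78, and without combination replicates 4 and 14, the lowest and the highest, it was 0.76. The combination arrays were the most spread. The median SD of a linked feature was 0.463 there, against 0.272 in TNF and 0.259 in vehicle. Over all 6963 features the medians were 0.263, 0.224 and 0.239 in the same order. Of the 168 members, 134 (79.8%) had a larger SD in the combination than in TNF, against 64.6% of all features.

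**Figure D4:**
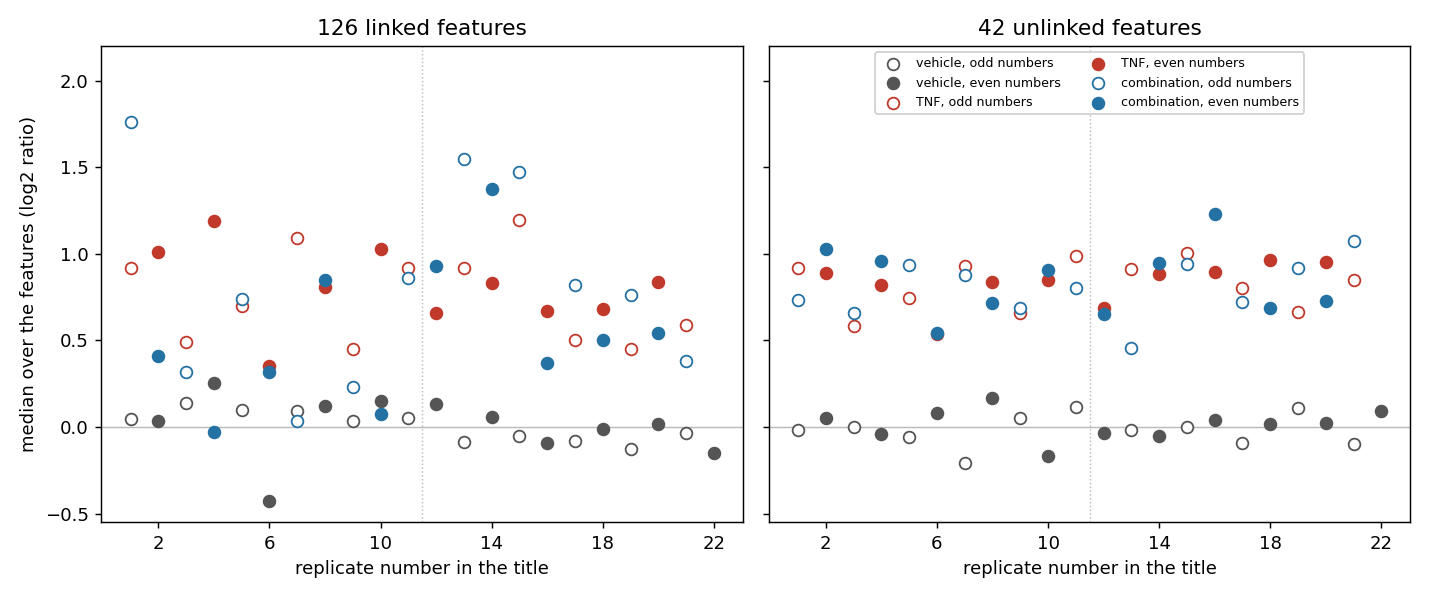
Median of the 126 linked and of the 42 unlinked features in each of the 64 arrays (y axis, log2 ratio) by replicate number (x axis), with odd-numbered arrays as open and even-numbered arrays as filled circles. Linked features in the combination arrays run from -0.03 to 1.76, while unlinked features stay between 0.46 and 1.23 there; the dotted line separates numbers 1 to 11 from 12 upwards.

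Over all even-numbered arrays the linked and the unlinked set had similar medians in TNF and lay further apart in the combination, a difference that was not tested and that was not the same in both number parts. In TNF the array medians of the even-numbered arrays ran from 0.35 to 1.19 for the linked set, with a median of 0.82, and from 0.54 to 0.97 for the unlinked set, with a median of 0.87. In the combination they ran from -0.03 to 1.38 for the linked set, with a median of 0.46. Of the 10 arrays, 2 lay within the vehicle range there, 3 lay below every TNF array and 1 above every TNF array. The unlinked set ran from 0.55 to 1.23 in the combination, with a median of 0.82. No array of the unlinked set reached the vehicle range, 8 of 10 lay within the TNF range and 2 above it. Among numbers 2 to 10 the medians of the array values were 1.01 for the linked and 0.84 for the unlinked set in TNF, and 0.32 and 0.91 in the combination. Among numbers 12 upwards they were 0.68 and 0.90 in TNF, and 0.55 and 0.73 in the combination, so there the sets lay about as far apart in both groups.

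The differences of single features followed. All 126 linked features had a lower mean in the combination than in TNF, with a median of -0.27 and a range from -0.63 to -0.02. All 17 features that fell belonged to this set. Linked features were grouped for moving together, so their shared sign is not 126 separate observations. In numbers 12 upwards 52 of them were lower and 73 higher. Of the unlinked features 23 had a higher and 18 a lower mean, with a median of 0.01 and a range from -0.37 to 0.23, and 0 of 42 passed the test in limma. All 24 features past the threshold above the midpoint were unlinked, and so were the 11 whose combination arrays all lay above the vehicle arrays. MSK03a16, MSK06f11, MSK07o4 and MSK38i3 are unlinked, and MSK04e14 and MSK17m22 are linked. The sets were formed from the odd-numbered arrays, in which both had differences near 0 between the combination and TNF by choice, with medians of 0.07 for the linked and 0.00 for the unlinked set.

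Replicate numbers 1 to 11 and 12 upwards were divided here because a shift between them was seen earlier in these data, and the labels do not say what the numbers stand for. Within the even-numbered arrays of numbers 1 to 11 (5 per group), the median difference of the 168 features between TNF and vehicle was 0.85. Within numbers 12 upwards (6 vehicle, 5 TNF and 5 combination arrays) it was 0.77. Between the combination and TNF the medians were -0.53 and 0.02, with 21 features called lower in the first part (12.5%, against 1.32% of all features) and 0 in the second (0.919% of all) in one limma fit over both parts. In the first part 143 features had a lower mean in the combination, and 141 to 146 with each TNF or combination array left out. In the second part 75 were lower and 91 higher, and without combination replicate 14 the median was -0.12 with 143 lower. One fit held a term for the difference between the parts. For the combination against TNF, 0 members and 0 of all 6963 features passed (limma, 0% of all). At an unadjusted p under 0.05 were 72 of the 168 members and 326 of the 6963 features. Unequal movement between the parts was therefore not shown for any single feature in the combination against TNF. For TNF against vehicle a pair of members passed (0.115% of all features), and they are described further below.

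**Figure D5:**
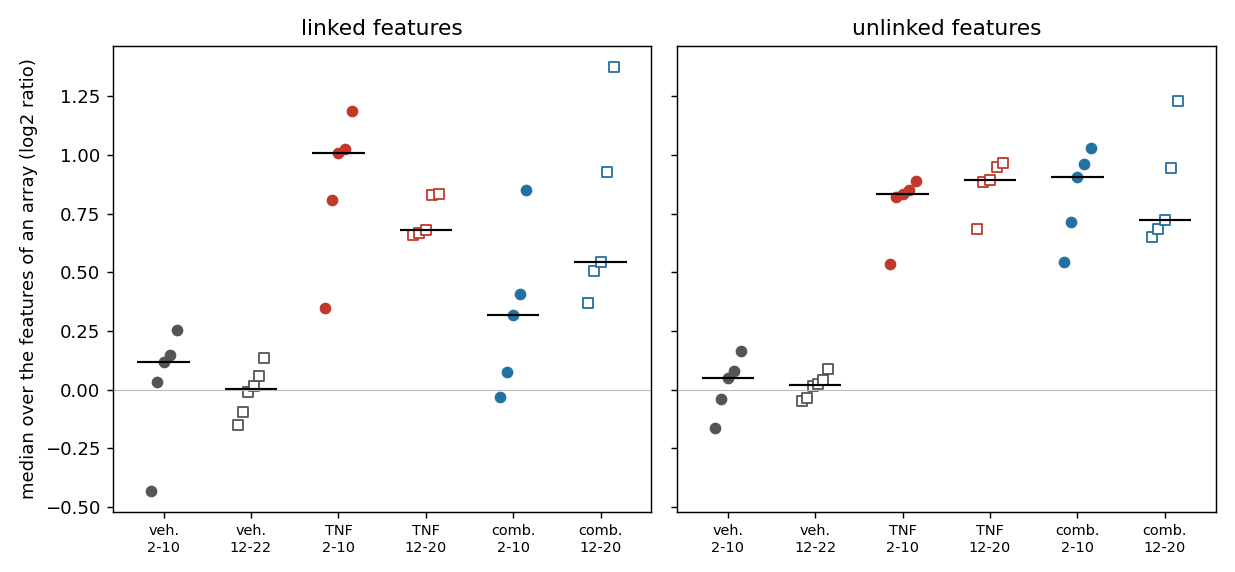
Median of the linked (left) and unlinked (right) features in each even-numbered array (y axis, log2 ratio), by group and replicate number, with lines at the median of each column. Linked features in the combination have a median of 0.32 among numbers 2 to 10 and 0.55 among numbers 12 to 20, against 1.01 and 0.68 in TNF.

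By set, the linked features had a median difference between the combination and TNF of -0.57 in numbers 1 to 11, where 125 of 126 were lower, and of 0.04 in numbers 12 upwards, where 52 were lower and 73 higher. Their medians above vehicle were 0.31 and 0.75. The unlinked features had medians of 0.10 and -0.02 against TNF and of 0.82 in both parts against vehicle. The linked set lay lower above vehicle in the first part, and the unlinked set had the same median in both. These medians were not tested.

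Members were spread over the array's source plates. All 26 plates, 16 well rows and 24 well columns named in the identifiers held at least 1 member. The share of members in a plate ran from 0.405% to 4.23%, in a row from 0.721% to 4.18% and in a column from 0.787% to 4.55%, around 2.52% of all MSK features. There were 8 pairs of members in adjoining wells of a plate. In each pair both features belonged to the same set, 6 pairs to the linked and 2 to the unlinked set. Their deviations correlated with r from 0.64 to 0.97 over the 31 even-numbered arrays. Over all pairs within a set the median r was 0.66 for the linked and 0.15 for the unlinked set. Whether such pairs hold the same transcript is not known from the files.

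Of the 252 MSK features raised by at least 0.6 in the odd-numbered arrays, 56 had a difference of -0.2 or lower between the combination and TNF there and 28 of 0.2 or higher. In the even-numbered arrays the medians of this difference were -0.30 for the 56, -0.24 for the 168 members and 0.28 for the 28. The called features numbered 13 of 56 lower (23.2%), 17 of 168 lower (10.1%), and 0 lower with 3 higher among the 28. Of all features 5.46% were called lower and 3.16% higher. Their medians above vehicle in the combination were 0.42, 0.55 and 1.38. The members and these 56 features had similar medians of the difference from TNF in the arrays not used for choosing. The share called lower was larger among the 56. The difference between the lists was not tested. A further 3 features of other collections met the same limits, of which 2 fell in the combination in the even-numbered arrays.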

How the data were processed

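Log2 ratios of Cy5 sample to Cy3 pool were used as deposited by the authors, with dyes per the labels. Log base, background correction, normalization and filters are not stated in these sources. Values have at most 2 decimals, 0 are missing, and no 2 arrays are identical (0 pairs). Members and sets were chosen with earlier results of these data known. Odd-numbered arrays chose the members, and 31 even-numbered arrays were fitted together with limma 3.58.1 in R 4.3.3 (lmFit, eBayes, no block), with two-sided p-values adjusted by Benjamini-Hochberg over 6963 features. The fit was tested on simulated data drawn independently for each feature and array, with equal spread in the groups. The simulation lacked the joint movement of features and the likeness of same-numbered arrays seen here. Descriptions used Python 3.11.15. The number of arrays limits the precision.

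Without gene symbols, the named features were the 2 members with the largest TNF minus vehicle in odd-numbered arrays and those with the 2 highest and 2 lowest combination minus TNF in even-numbered arrays. Settings added after seeing the data were a spread for each group, only the 2 groups compared, the turned sign, arrays left out of the choice and the term for number parts.

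Deviations of same-numbered even arrays correlated with r from 0.211 to 0.601 (vehicle and TNF) and from 0.100 to 0.559 (TNF and combination), all over 0.1. The numbers were therefore taken as pairs in a further fit with replicate number as a block, but not in the main fits. For vehicle and combination 9 of 10 were over 0.1. The pairing comes from the data, not the labels.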

Additional observations from a re-analysis of the deposited data

Results flagged for a closer look

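A pair of members had a difference between TNF and vehicle that differed between replicate numbers 1 to 11 and 12 upwards by limma's test of the difference itself, over all 6963 features. They are named because this test called them, after their values were seen. For MSK38d18 the second minus the first part was 1.66 (SE 0.229, adjusted p = 0.000201), with TNF 0.12 above vehicle in numbers 1 to 11 and 1.77 above it in numbers 12 upwards. Its TNF arrays lay between -0.37 and 0.09 in the first part and between 1.94 and 2.41 in the second, and its combination arrays between -0.26 and 0.03 and between 1.13 and 2.24. For MSK22n19 the same value was -0.91 (SE 0.194, adjusted p = 0.0471), with TNF 1.34 above vehicle in numbers 1 to 11 and 0.43 in numbers 12 upwards. Its TNF arrays lay between 0.93 and 1.52 in the first part and between -0.06 and 0.54 in the second. Of all features 8 were called in this test (0.115%). What the replicate numbers stand for is not in the labels, so the cause was not tested.

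Single arrays far from the others were looked for in the 10 TNF and the 10 combination arrays, and 0 of 18 such groups of values held one. The 11 vehicle arrays were too many for the test used and were not looked at. There MSK04e14 had a lowest value of -1.35 (replicate 6) with the next at -0.30, MSK06f11 a highest value of 2.34 (replicate 20) with the next at 0.79, and the median of the 168 members was -0.38 in replicate 6 with the next at -0.09.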

How the results depend on the processing

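The count of features that fell from TNF to the combination (17) was the least stable. Shares of members are given here against the share of all features called either way in the same fit. The count was 2 with a common MAD (1.19%, against 2.69%) and 6 after quantile normalization (3.57%, against 3.37%). It was 5 in a fit of numbers 1 to 11 alone (2.98%, against 1.03%) and 21 in the fit over both parts. In numbers 12 upwards it was 0 (5.36% of all). At the stricter adjusted p of 0.01 it was 1 (0.595%, against 3.02%). Tested against a change of 1.2-fold it was 0 (0.531% of all), and 6 to 36 with each array left out. Higher in the combination than in vehicle (142) were 30 in numbers 1 to 11 (17.9%, against 16.9%) and 140 in numbers 12 upwards (83.3%, against 25.3%). In the fit over both parts, 35 were higher in numbers 1 to 11, against 11.4% of all features called higher. In numbers 12 upwards of that fit 135 were higher, against 9.75% of all called higher. Against a 1.2-fold difference there were 24 (14.3%, against 5.41%). A common MAD gave 114 (67.9%, against 25.4%), quantile normalization 106 (63.1%, against 25.3%), and leaving out each array 132 to 150. Above the midpoint (24, 14.3%, against 14.9%) were 17 in numbers 1 to 11 alone (10.1%, against 4.97%). Numbers 12 upwards alone gave 61 (36.3%), a larger share than that of all features called in that fit. Against a 1.2-fold difference there were 7 (4.17%, against 1.81%). Leaving out each array gave 21 to 26 (12.5% to 15.5%, against 11.2% to 21.1%), on both sides of the share of all features. Higher in TNF than in vehicle (168) were 160 with a common MAD (95.2%, against 25.6%), where the median difference was 0.61. After quantile normalization there were 160 (95.2%, against 27%), and against a 1.2-fold difference 136 (81%, against 6.92%). Numbers 1 to 11 alone gave 157 (93.5%, against 19.4%) and numbers 12 upwards 154 (91.7%, against 28.4%). The count was 166 to 168 with each array left out. With the roles of the arrays exchanged, 97 features were chosen in even-numbered arrays, 51 of them members. In odd-numbered arrays 93 of these were higher in TNF than in vehicle (34.7% of all features called either way), 8 lower in the combination than in TNF (8.25%, against 17.6% of all), 93 higher in the combination than in vehicle (45.1% of all) and 64 above the midpoint (30.8% of all). Their median difference between the combination and TNF was 0.07, against -0.24 for the members.

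The number of members (168) was 254 with at least 0.5 and 62 with at least 0.8 between TNF and vehicle, 84 with a limit of 0.1 between the combination and TNF, 111 with a common MAD, 106 after quantile normalization and 140 to 175 with each odd-numbered array left out. Blocking on replicate number, the counts for the 3 pairwise comparisons and the midpoint came to 168, 25, 152 and 25. As shares of the members these were 100%, 14.9%, 90.5% and 14.9%. Of all features 52.9%, 14.5%, 44.8% and 21.6% were called either way in that fit. The pairing changed 1 call of a named feature, MSK06f11 in the combination against vehicle (1.00, adjusted p = 0.00279 in limma). No named feature reversed past the threshold over 774 values (0), of which 746 kept their call. Averaging features of 1 symbol was not run, since no symbols were at hand. Signal over background is unknown.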
